A study of Homo sapiens with 6 samples.

Results

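The genes described here are the CDK inhibitor genes CDKN1A, CDKN1B, CDKN1C, CDKN2A, CDKN2B, CDKN2C and CDKN2D, together with CDKN3, the kinase gene CDK4 and the retinoblastoma gene RB1. They were found by gene name, and 10 of the 29435 genes in the deposited table matched. The set was chosen from the deposited expression values of these same libraries, in that the levels, above all that of CDKN2A, and the differences between the groups were known when it was drawn up. Levels and differences of these genes are therefore a description of these libraries and no independent evidence.

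The samples were cells labelled HepG2, a human liver tumour line, kept in DMEM with fetal bovine serum and penicillin/streptomycin. In 1 group they received 20 µM saikosaponin A (SsA), a triterpenoid saponin from Bupleurum root, for 4 h (3 libraries), and in the other the solvent DMSO alone for 4 h (3 libraries). The RNA was poly(A)-selected and sequenced in bulk. Whether the numbered replicates were separate cultures is not in the labels, so every p-value here reflects only the spread among these libraries, which may be technical.

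Progress from G1 into S phase is driven by CDK4 and CDK6 with D-type cyclins and then by CDK2 with cyclin E, which phosphorylate the retinoblastoma protein RB and release E2F transcription factors. INK4 proteins, encoded by CDKN2A, CDKN2B, CDKN2C and CDKN2D, bind CDK4 and CDK6. CIP/KIP proteins, encoded by CDKN1A, CDKN1B and CDKN1C, bind cyclin-CDK complexes and inhibit CDK2 above all. CDKN2A also encodes ARF from another first exon; ARF binds the ubiquitin ligase MDM2, and loss or silencing of the locus is common in liver and other cancers.

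Library totals were 58955482, 69567633 and 64666078 counts in SsA replicates 1, 2 and 3, and 72162625, 74912492 and 57768359 counts in DMSO replicates 1, 2 and 3. Mitochondrially encoded genes took 18.8% of the counts in SsA replicate 1 and 14.9% in DMSO replicate 3, against 6.19 to 8.28% in the other 4 libraries, so these 2 libraries stood apart from their groups. The label was checked against defining markers: 9 of 15 hepatocyte genes had a row, all 9 had a mean below 0.1 FPKM (the length-normalised expression values that the authors deposited), and their summed level was 0.0184 to 0.0734 FPKM in SsA and 0.0663 to 0.113 FPKM in DMSO. The hepatocyte markers thus did not bear out the label. Among markers for further cell types, 4 of 6 fibroblast genes with a row had a mean of at least 1 FPKM (COL1A1, COL3A1, PDGFRB and ACTA2; summed 29.1 to 35.6 FPKM in SsA and 34.4 to 45.5 FPKM in DMSO). Likewise 2 of 4 keratinocyte genes with a row did so (KRT17 and SFN; summed 194 to 203 FPKM in SsA and 147 to 154 FPKM in DMSO), whereas 0 of 4 endothelial genes and 0 of 1 leukocyte gene with a row reached that level. Only 4 of the 6 listed keratinocyte genes had a row, and TP63 and KRT6A averaged 0.00864 and 0.0121 FPKM over all libraries. Most of the keratinocyte sum was SFN, with means of 175 FPKM in SsA and 136 FPKM in DMSO. Of the fibroblast list, DCN and LUM averaged 0.0853 and 0.379 FPKM over all libraries. The summed endothelial markers were 0.468 to 0.545 FPKM in SsA and 0.901 to 0.977 FPKM in DMSO, nearly all of it CDH5. COL1A1 averaged 3.44 FPKM in SsA and 8.56 FPKM in DMSO. The summed keratinocyte and endothelial markers did not overlap between the groups, and their part in the results below was not tested. In bulk RNA, fewer cells of a type and less RNA per cell cannot be told apart.

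CDKN2A and CDKN2B are neighbours on the minus strand of chromosome 9, and they moved in opposite directions, which is why their start regions are shown. In the deposited GRCh38 coordinates CDKN2A lies at chr9:21967753-21994873 and CDKN2B at chr9:22002903-22009305, with 8029 bases between them. CDKN2A has a start for the INK4a transcript and another, upstream, for the ARF transcript, and the deposited gene count does not separate them. The ARF window shown lies upstream of the deposited CDKN2A interval. Each line gives 250 bases before and 50 bases after an annotated start on the minus strand (RefSeq, GRCh38.p14), at chr9:21974808-21975107 for INK4a, chr9:21995275-21995574 for ARF and chr9:22009256-22009555 for CDKN2B. Capitals mark GC boxes, the letters GGGCGG on either strand.
CDKN2A, INK4a start: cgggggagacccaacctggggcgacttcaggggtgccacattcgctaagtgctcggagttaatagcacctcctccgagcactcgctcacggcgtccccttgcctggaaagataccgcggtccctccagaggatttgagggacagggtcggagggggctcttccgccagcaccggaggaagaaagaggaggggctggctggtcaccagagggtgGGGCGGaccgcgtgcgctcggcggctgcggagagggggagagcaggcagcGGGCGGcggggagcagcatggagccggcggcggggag
CDKN2A, ARF start: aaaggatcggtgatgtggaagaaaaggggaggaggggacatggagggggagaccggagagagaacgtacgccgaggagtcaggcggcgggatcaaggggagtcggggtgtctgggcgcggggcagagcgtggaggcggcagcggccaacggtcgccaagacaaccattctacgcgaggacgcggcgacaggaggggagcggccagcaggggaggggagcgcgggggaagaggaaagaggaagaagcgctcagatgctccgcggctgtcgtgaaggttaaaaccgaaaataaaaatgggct
CDKN2B start: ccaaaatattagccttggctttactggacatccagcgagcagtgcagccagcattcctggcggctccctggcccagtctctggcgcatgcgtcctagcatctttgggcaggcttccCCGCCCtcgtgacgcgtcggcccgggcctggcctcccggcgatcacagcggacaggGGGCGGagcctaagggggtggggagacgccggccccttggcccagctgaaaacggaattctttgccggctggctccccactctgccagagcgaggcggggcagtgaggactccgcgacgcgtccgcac
The windows at the INK4a start and at CDKN2B each held 2 GC boxes, and the ARF window held 0, against at least 1 in 45.0% of 35116 annotated windows of the same length. Letters of an AP-1 site, a cyclic AMP response element, a core ETS site, an E2F site and an E box were also searched. All were absent from the windows shown, against at least 1 match in 1.63 to 10.3% of annotated windows, depending on the motif. The GC content was 69.0% at the INK4a start, 63.3% at the ARF start and 67.3% at CDKN2B. A match of these letters is a description of the window and not a binding site, and the absence of a match says only that these letters are not in it.

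Among the 10 genes, CDKN2A, CDKN1C, CDKN3 and CDK4 were higher after SsA, CDKN2B and RB1 were lower, and CDKN1A, CDKN1B, CDKN2C and CDKN2D did not pass the test. The test was edgeR's quasi-likelihood test on the deposited counts with a Benjamini-Hochberg adjusted p below 0.05 over the 11427 genes with at least 1 FPKM in at least 3 of 6 libraries. All 10 genes passed that level filter. Beside the chromosome 9 pair they lie, in the deposited GRCh38 coordinates, at chr6:36676460-36687337 (CDKN1A), chr12:12715058-12722369 (CDKN1B), chr11:2883213-2885771 (CDKN1C), chr1:50960745-50974634 (CDKN2C), chr19:10566460-10569059 (CDKN2D), chr14:54396849-54420218 (CDKN3), chr12:57747727-57756013 (CDK4) and chr13:48303744-48599436 (RB1). The 6 called genes were 60.0% of the 10, beside 53.8% of all tested genes called in either direction (25.9% higher and 27.9% lower). For the 7 CIP/KIP and INK4 genes alone, 2 were higher, 1 was lower and 4 were not called, which is 42.9%. In library-scaled counts (CPM) the groups did not overlap for 7 of the 10 genes, beside 62.8% of all tested genes. Shares so near the background are no result about this family. The median log2 fold change of the 10 genes was 0.40 beside 0.03 over all tested genes. This contrast does not allow for transcript length, described below. The median was 0.64 and 0.42 in the 2 sets of coding genes with the shortest transcripts, and 7 of the 10 members lay within the quartiles of genes of like length. By definition such quartiles enclose the middle 2 of 4 equal parts of each set, so that count is no result about the family.

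**Figure D1:**
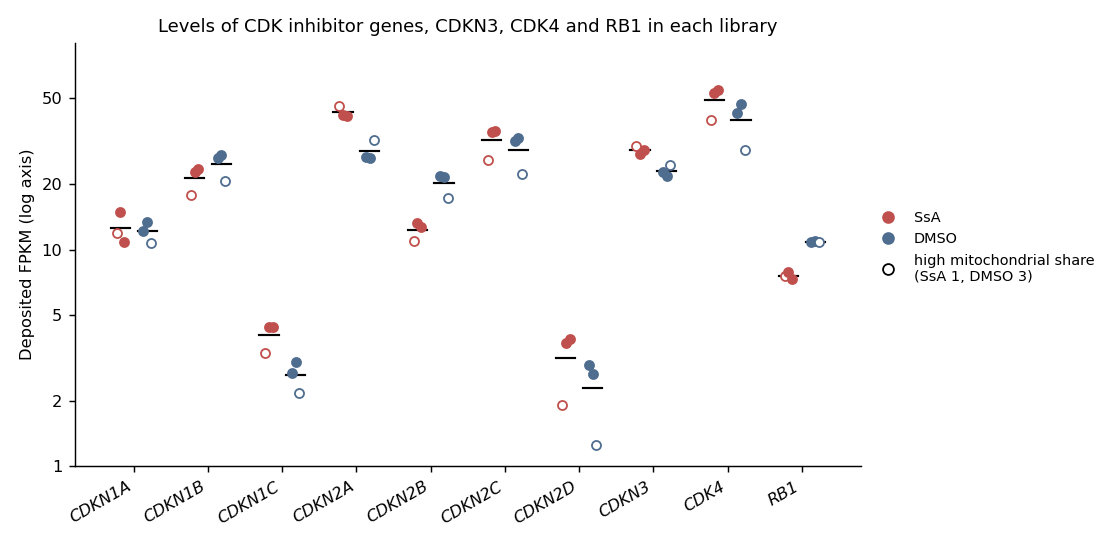
Deposited FPKM (log axis) of each gene in the 3 SsA libraries (red, left) and the 3 DMSO libraries (blue, right); short lines are group means and open circles are SsA replicate 1 and DMSO replicate 3. CDKN2A at 41.2 to 45.7 FPKM in SsA stands above 26.4 to 31.9 FPKM in DMSO, CDKN2B and RB1 stand lower in SsA, and the 2 open circles lie apart from their groups for CDKN2C, CDKN2D and CDK4.

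CDKN2A, which encodes the CDK4/6 inhibitor p16INK4a as well as ARF, was at 45.7, 41.9 and 41.2 FPKM in SsA replicates 1, 2 and 3, against 26.9, 26.4 and 31.9 FPKM in DMSO replicates 1, 2 and 3. All SsA libraries were above all DMSO libraries, and within each group the library of high mitochondrial share was the highest. CDKN2A averaged 228 ± 28.8 CPM in SsA and 135 ± 27.1 CPM in DMSO (SD, n = 3 each), a log2 fold change of 0.75 ± 0.15 (SE, edgeR adjusted p = 0.00612). The 4 libraries of low mitochondrial share alone gave a log2 fold change of 0.79. SsA replicate 1 over DMSO replicate 3, with 1 library each and no test, gave a log2 ratio of 0.65. Within both strata the mitochondrial share was higher in SsA, at 7.62 and 8.28% against 6.36 and 6.19%, and at 18.8% against 14.9%. The part of that share in the difference was not tested. After correction for the length of the longest transcript, described below, the log2 fold change of CDKN2A was 0.46 ± 0.17 and no longer called (edgeR adjusted p = 0.0687). With the length implied by the deposited counts and FPKM, close to that of merged exons, it was 0.77 and called (edgeR adjusted p = 0.00694). The FPKM level of CDKN2A was above that of 91.5 to 93.9% of tested genes in SsA libraries and above 86.7 to 91.3% in DMSO libraries.

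CDKN2B encodes p15INK4b, a CDK4/6 inhibitor known as a target of transforming growth factor beta signalling. It was at 10.9, 13.3 and 12.7 FPKM in SsA replicates 1, 2 and 3, against 21.8, 21.6 and 17.2 FPKM in DMSO replicates 1, 2 and 3. Every SsA library was below every DMSO library, and the library of high mitochondrial share was the lowest of its group in both. CDKN2B averaged 59.96 ± 2.31 CPM in SsA and 87.8 ± 4.08 CPM in DMSO (SD, n = 3 each), a log2 fold change of -0.55 ± 0.07 (SE, edgeR adjusted p = 7.03e-04). The call held in each of the 19 alternatives tried, whose log2 fold changes ran from -0.90 to -0.46. The long noncoding RNA CDKN2B-AS1 (ANRIL) runs antisense across CDKN2B and the upstream end of CDKN2A. Its level averaged 0.364 ± 0.0383 FPKM in SsA and 0.646 ± 0.0958 FPKM in DMSO, under the level filter. With the strand setting of the counting not given in the sources used here, antisense reads may be part of the counts of either gene.

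CDKN2C encodes p18INK4c, which likewise binds CDK4 and CDK6. It was at 25.96, 34.9 and 35.4 FPKM in SsA replicates 1, 2 and 3, against 31.6, 32.7 and 22.3 FPKM in DMSO replicates 1, 2 and 3. The FPKM values overlapped, and SsA replicate 1 and DMSO replicate 3 were the lowest of their groups. In TMM-scaled counts the groups did not overlap, at 118 ± 12.3 CPM in SsA and 94.2 ± 11.4 CPM in DMSO (SD, n = 3 each), and the log2 fold change of 0.32 ± 0.12 narrowly missed the threshold (SE, edgeR adjusted p = 0.0509). It passed without SsA replicate 1 (0.40, edgeR adjusted p = 0.0199) and in the fit to the 4 libraries whose mitochondrial share was low (0.28, edgeR adjusted p = 8.79e-04). On the TPM scale, where each library's length-normalised values are set to the same total, the value was -0.043.

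CDKN2D, the gene of the INK4 inhibitor p19INK4d, had the lowest level of the family. It was at 1.92, 3.71 and 3.85 FPKM in SsA replicates 1, 2 and 3, against 2.94, 2.66 and 1.26 FPKM in DMSO replicates 1, 2 and 3. The groups overlapped, again with the 2 libraries of high mitochondrial share lowest in their groups. CDKN2D had a log2 fold change of 0.64 ± 0.33 (SE, edgeR adjusted p = 0.142), and it was 0.59 (edgeR adjusted p = 0.0130) within the other 4 libraries.

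The 3 CIP/KIP genes differed in level and in response. CDKN1A, which encodes the stress-induced inhibitor p21, was at 12.0, 14.95 and 10.8 FPKM in SsA replicates 1, 2 and 3, against 12.2, 13.4 and 10.7 FPKM in DMSO replicates 1, 2 and 3. The groups overlapped, and SsA replicate 2 was the highest library. CDKN1A averaged 46.0 ± 7.08 CPM in SsA and 39.5 ± 1.92 CPM in DMSO (SD, n = 3 each), a log2 fold change of 0.22 ± 0.12 that did not pass (SE, edgeR adjusted p = 0.152). SsA replicate 3 decided that call, since without it the value was 0.34 (edgeR adjusted p = 0.0285); on the TPM scale it was -0.15.

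CDKN1B, the gene of p27, a brake on CDK2 in resting cells, was at 17.9, 22.7 and 23.4 FPKM in SsA replicates 1, 2 and 3, against 26.4, 27.2 and 20.8 FPKM in DMSO replicates 1, 2 and 3. The groups overlapped because DMSO replicate 3 was below SsA replicates 2 and 3. CDKN1B had a log2 fold change of -0.05 ± 0.08 (SE, edgeR adjusted p = 0.620). Its sign turned without SsA replicate 1 (0.011) and without a level filter (0.0042).

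CDKN1C, an imprinted gene that encodes p57, was at 3.33, 4.40 and 4.38 FPKM in SsA replicates 1, 2 and 3, against 2.68, 3.04 and 2.18 FPKM in DMSO replicates 1, 2 and 3. All SsA libraries were above all DMSO libraries, and the library of high mitochondrial share was again the lowest of each group. CDKN1C averaged 12.2 ± 1.10 CPM in SsA and 7.11 ± 0.649 CPM in DMSO (SD, n = 3 each), with a log2 fold change of 0.78 ± 0.13 (SE, edgeR adjusted p = 0.00277), close to that of CDKN2A. The direction was the same in all 18 alternatives that could be run for it, and the call was lost in 1 of them, on the TPM scale (0.38, limma adjusted p = 0.368).

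CDKN3 is not an inhibitor by sequence family: it encodes a phosphatase that removes the activating phosphate of CDK2 and is itself raised in dividing cells. It was at 29.9, 27.7 and 28.7 FPKM in SsA replicates 1, 2 and 3, against 22.8, 21.9 and 24.6 FPKM in DMSO replicates 1, 2 and 3. The groups did not overlap, and the library of high mitochondrial share was the highest of each. CDKN3 averaged 64.8 ± 6.87 CPM in SsA and 46.6 ± 6.98 CPM in DMSO (SD, n = 3 each), a log2 fold change of 0.48 ± 0.13 (SE, edgeR adjusted p = 0.0171). Leaving out DMSO replicate 1 (0.43, edgeR adjusted p = 0.0625) or DMSO replicate 2 (0.40, edgeR adjusted p = 0.0563) ended the call, as did the correction for transcript length (0.12 ± 0.15, edgeR adjusted p = 0.543).

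CDK4, the kinase that INK4 proteins bind, was at 39.6, 52.6 and 54.2 FPKM in SsA replicates 1, 2 and 3, against 42.7, 46.7 and 28.9 FPKM in DMSO replicates 1, 2 and 3. The FPKM values overlapped, with SsA replicate 1 and DMSO replicate 3 lowest in their groups. In TMM-scaled counts the groups did not overlap, at 183 ± 19.2 CPM in SsA and 132 ± 21.6 CPM in DMSO (SD, n = 3 each), giving a log2 fold change of 0.48 ± 0.14 (SE, edgeR adjusted p = 0.0217). The call held in 9 of 19 alternatives. It was lost without SsA replicate 2 (edgeR adjusted p = 0.0699), without SsA replicate 3 (0.0751), without DMSO replicate 1 (0.0535), with scaling to total counts (0.33, edgeR adjusted p = 0.179) and after correction for transcript length (0.35 ± 0.13, edgeR adjusted p = 0.0625). CDK4 overlaps TSPAN31 and MARCH9 on the opposite strand, whose reads may be part of its count.

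RB1, the tumour suppressor whose protein the CDKs phosphorylate, was at 7.55, 7.87 and 7.34 FPKM in SsA replicates 1, 2 and 3, against 10.9, 10.95 and 10.8 FPKM in DMSO replicates 1, 2 and 3. The groups were well separated, and the 3 DMSO libraries had an SD of 0.0568 FPKM. RB1 averaged 59.7 ± 4.15 CPM in SsA and 76.7 ± 6.55 CPM in DMSO (SD, n = 3 each), a log2 fold change of -0.36 ± 0.09 (SE, edgeR adjusted p = 0.0119). After correction for transcript length it was -0.20 ± 0.08 (edgeR adjusted p = 0.0855). The opposite-strand genes LPAR6 and RCBTB2 lie within the deposited RB1 interval, RCBTB2 past the end of the longest RB1 transcript.

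The other 5 called genes kept their direction in both strata of mitochondrial share, and the part of that share was likewise not tested. In the fit to the 4 libraries of low share the log2 fold changes were -0.59 for CDKN2B, 0.77 for CDKN1C, 0.49 for CDKN3, 0.41 for CDK4 and -0.37 for RB1. SsA replicate 1 over DMSO replicate 3, with 1 library each and no test, gave log2 ratios of -0.53 for CDKN2B, 0.74 for CDKN1C, 0.41 for CDKN3, 0.58 for CDK4 and -0.39 for RB1.

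**Figure D2:**
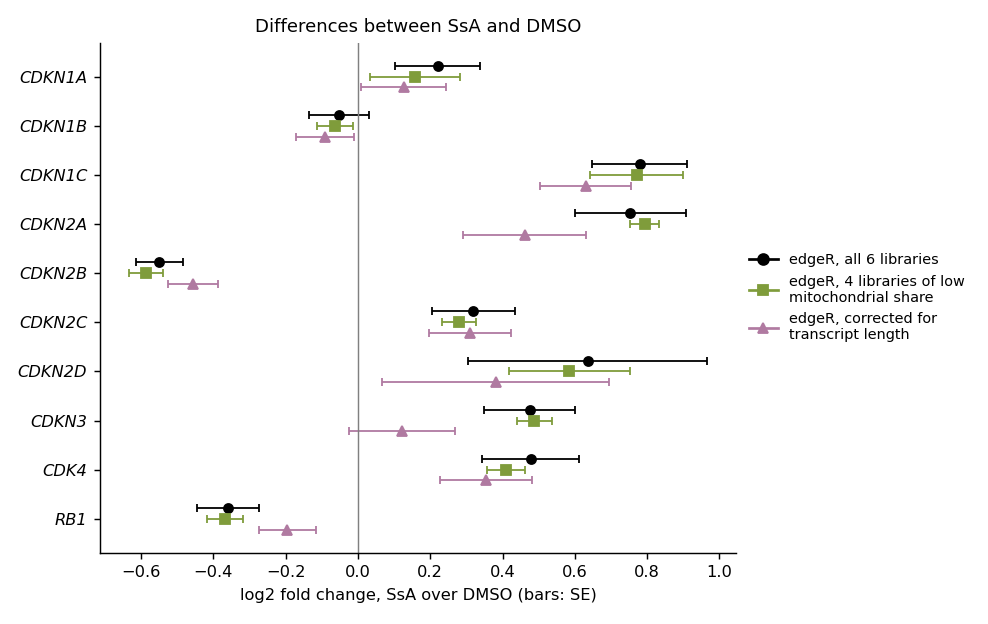
The log2 fold change of each gene, SsA over DMSO, with its standard error, for all 6 libraries (circles), the 4 libraries of low mitochondrial share (squares) and all 6 libraries with a correction for transcript length (triangles). The squares stay close to the circles, with CDKN2A at 0.79 beside 0.75, while the triangles of CDKN2A (0.46), CDKN3 (0.12) and RB1 (-0.20) are nearer to 0.

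Across protein-coding genes the difference between the groups ran with transcript length, and 7 of the 10 members lay within the quartiles of coding genes of like length. Those quartiles enclose, by definition, the middle 2 of 4 equal parts of the genes of like length. The count of 7 is therefore no result about the family. Tested protein-coding genes were put into 10 groups of like size by the length of their longest GENCODE 29 transcript; the median log2 fold change was 0.64 in the group of shortest transcripts and -0.66 in that of the longest. CDKN3 (1070 nt), CDKN2A (1283 nt) and CDKN2D (1422 nt) belong to the shortest group, and their log2 fold changes of 0.48, 0.75 and 0.64 lay within its quartiles of 0.44 and 0.82. CDK4 (2076 nt), CDKN1A (2267 nt), CDKN1B (2657 nt) and RB1 (4793 nt) also lay within the quartiles of their groups. Outside them were CDKN1C (1936 nt), at 0.78 above an upper quartile of 0.59, CDKN2B (3911 nt), at -0.55 below a lower quartile of -0.30, and CDKN2C (2904 nt), at 0.32 beside an upper quartile of 0.31. With log2 length of the longest transcript entered as a correction, CDKN1C (0.63 ± 0.13, SE, edgeR adjusted p = 0.00838) and CDKN2B (-0.46 ± 0.07, edgeR adjusted p = 0.00287) were the 2 members called. In that correction 2345 of all 11382 tested genes with a length were higher and 2138 lower, so 2 of 10 members called is no result about the family. The count depended on the length and the libraries used. For the fits that follow, the share over all genes is not given here, so their member counts are a description only. A further correction, chosen after seeing the data, used the length implied by each gene's deposited counts and FPKM. That length is close to merged exon length. With it, CDKN2A (0.77, edgeR adjusted p = 0.00694), CDK4 (0.40, edgeR adjusted p = 0.0412) and RB1 (-0.23, edgeR adjusted p = 0.0487) were called as well. With the longest transcript and only the 4 libraries of low mitochondrial share, also chosen after seeing the data, so were CDKN2A (0.50, edgeR adjusted p = 1.8e-05), CDKN2C (0.27, edgeR adjusted p = 0.00149), CDKN3 (0.13, edgeR adjusted p = 0.0425), CDK4 (0.28, edgeR adjusted p = 0.00167) and RB1 (-0.20, edgeR adjusted p = 0.00671).

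**Figure D3:**
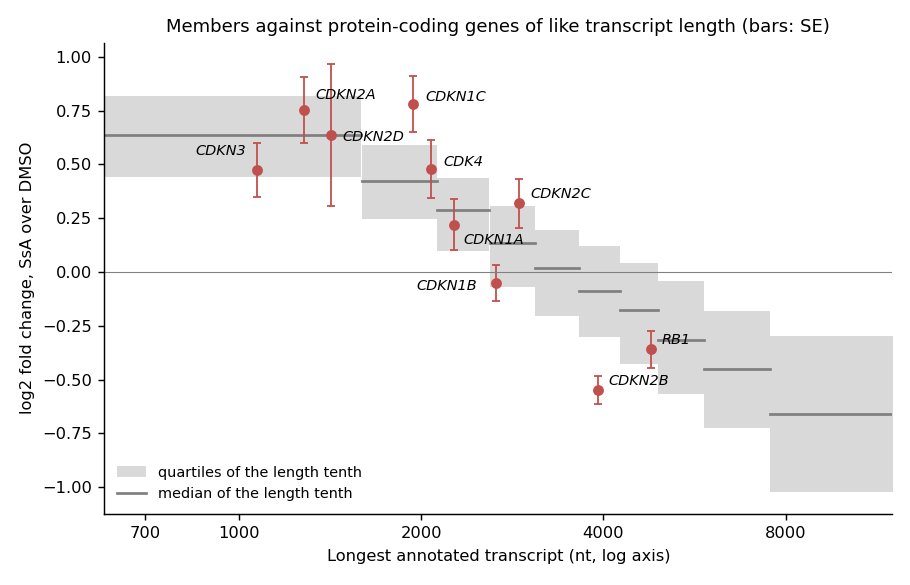
The log2 fold change of each member, SsA over DMSO, with its standard error, against the length of its longest annotated transcript (log axis); grey bands and lines are the quartiles and medians of protein-coding genes in 10 length groups, of which the last runs past the right edge. CDKN1C at 0.78 lies above and CDKN2B at -0.55 below the band of genes of their length, and CDKN2A at 0.75 lies inside it.

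The order of levels depended on which length the counts were divided by. On the deposited FPKM scale CDK4 (48.8 ± 8.00 FPKM in SsA, 39.4 ± 9.36 FPKM in DMSO; SD, n = 3 each) was first in both groups, and CDKN2A was the next in SsA (42.9 ± 2.46 FPKM) and after CDKN2C in DMSO (28.4 ± 3.03 FPKM). In SsA, CDK4 and CDKN2A overlapped, as did CDKN2C and CDKN3, CDKN1A and CDKN2B, and CDKN1C and CDKN2D. In DMSO, each neighbour from CDK4 through CDKN2C, CDKN2A and CDKN1B to CDKN3 overlapped the next, as did CDKN1A and RB1, and CDKN1C and CDKN2D. The deposited FPKM divide by a length close to that of all exons merged (median ratio of implied to merged length 1.16, quartiles 1.15 and 1.17, over 13772 coding genes), and for CDKN2A the merged exons span 4329 nt while its longest transcript has 1283 nt. Per kilobase of the longest transcript, a scale added after seeing the data, CDKN2A was first in both groups, at 178 ± 22.5 CPM per kilobase in SsA and 105 ± 21.1 CPM per kilobase in DMSO (SD, n = 3 each). CDK4 came next on that scale, at 88.3 ± 9.27 CPM per kilobase in SsA and 63.4 ± 10.4 CPM per kilobase in DMSO, with no overlap with CDKN2A in either group. On that scale the neighbours in order that overlapped were CDKN1B and CDKN1A in SsA, and CDKN1A and RB1 in DMSO. CDKN2D was last on both scales, and CDKN1C next to last.

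Ratios within a library do not depend on how libraries were scaled. The ratio of CDKN2A to CDKN2B on the FPKM scale was 4.19, 3.15 and 3.25 in SsA replicates 1, 2 and 3, against 1.23, 1.22 and 1.85 in DMSO replicates 1, 2 and 3. The ratio of CDKN2A to the sum of CDKN2B, CDKN2C and CDKN2D was 1.18, 0.808 and 0.793 in SsA and 0.477, 0.463 and 0.783 in DMSO, and that of CDKN2A to RB1 was 6.06, 5.33 and 5.61 in SsA and 2.47, 2.41 and 2.94 in DMSO. All 3 ratios were higher in every SsA library than in every DMSO library, although for the sum of the other INK4 genes DMSO replicate 3 came close to SsA replicate 3. The 3 CIP/KIP genes together relative to CDK4 were lower, at 0.840, 0.800 and 0.713 in SsA and 0.967, 0.936 and 1.17 in DMSO. For all 4 INK4 genes together relative to CDK4 the groups overlapped, at 2.14, 1.78 and 1.72 in SsA and 1.95, 1.79 and 2.52 in DMSO. No test was made on these ratios, since they come from the differences that were known when the genes were chosen. The longest transcript of CDKN2A (1283 nt) is shorter than those of CDKN2B (3911 nt) and RB1 (4793 nt). Its merged exons (4329 nt) are longer than those of CDKN2B (4058 nt) and shorter than those of RB1 (6452 nt). The part of length in these ratios was not tested.

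**Figure D4:**
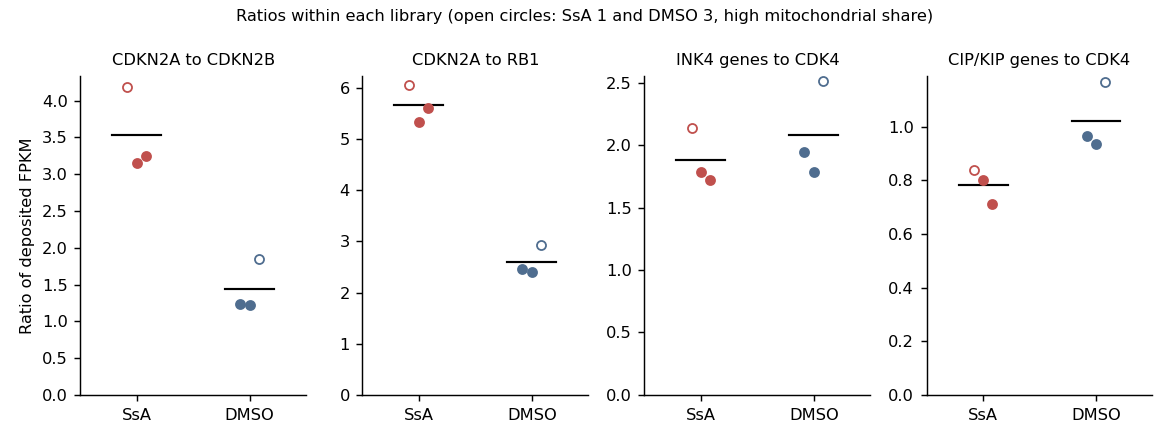
Ratios of deposited FPKM within each library, SsA left and DMSO right, with group means as lines and open circles for SsA replicate 1 and DMSO replicate 3. CDKN2A to CDKN2B was 3.15 to 4.19 in SsA and 1.22 to 1.85 in DMSO, and the ratio of the 4 INK4 genes to CDK4 overlapped between the groups.

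The genes around the inhibitors were described with 7 lists of 90 genes, of which 89 had a row and 84 were tested. Of these 84, 20 were higher, 26 were lower and 38 were not called after SsA; this is 54.8% called beside 53.8% of all tested genes, with a median log2 fold change of -0.04. The number of higher genes depended on scaling, at 8 with total counts and 1 on the TPM scale, and it was 14 with the length correction, in which 18 were lower. In that correction all tested genes split into 2345 higher and 2138 lower. By list, 72.7% of G1 partners, 44.4% of pocket protein, E2F and DREAM genes, 38.9% of E2F targets and 70.0% of degradation genes were called. It was 58.3% each for the INK4 locus and CDKN1A regulators, and 66.7% for the CDKN2A list. Beside 53.8% of all tested genes (25.9% higher and 27.9% lower), the counts by list are of few genes and were not tested.

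Of the 11 tested CDK and cyclin partners of G1, 5 were higher (CCND3, CDK2, CDK7, CCNH and MNAT1) and 3 lower (CDK6, CCND1 and CCNE2). CDK7, CCNH and MNAT1 encode the 3 subunits of the CDK-activating kinase, with log2 fold changes of 0.54 ± 0.12, 0.24 ± 0.09 and 0.26 ± 0.07 (SE). The kinase gene CDK6, the other INK4 target, was at 3.93, 4.53 and 4.41 FPKM in SsA replicates 1, 2 and 3, against 9.38, 9.49 and 8.87 FPKM in DMSO replicates 1, 2 and 3, a log2 fold change of -0.95 ± 0.06 (SE, edgeR adjusted p = 1.04e-04). Every SsA library was below every DMSO library, and with the length correction CDK6 was still lower (-0.48 ± 0.06, edgeR adjusted p = 0.00148). CCND1, the gene of cyclin D1, fell by 0.44 ± 0.06 (edgeR adjusted p = 0.00103). The count of 5 higher partners was 1 without SsA replicate 3 or DMSO replicate 2, 2 without SsA replicate 2, DMSO replicate 1 or DMSO replicate 3, and 1 with the length correction. Beside these counts, 2005 to 3153 of the 11427 tested genes were higher with 1 library left out. It was 2345 of 11382 genes with the length correction.

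Of 18 tested genes of pocket proteins, E2F factors and the DREAM complex, 1 was higher and 7 were lower, against 2 and 6 under the length correction. This is 44.4% called without that correction, beside 53.8% of all tested genes. The median longest transcript of the list was 4158 nt, beside 3348 nt over all tested genes. The lower genes were RBL1, E2F2, E2F3, E2F7, E2F8, TFDP2 and LIN54, of which TFDP2 had a length-corrected log2 fold change of 0.12. The higher one, E2F5 (0.51 ± 0.16, SE, edgeR adjusted p = 0.0311), lost its call without SsA replicate 1, SsA replicate 2, DMSO replicate 1 or DMSO replicate 2. E2F5 stayed called with the length correction (0.70 ± 0.15, SE, edgeR adjusted p = 0.0117). E2F7 averaged 24.9 ± 1.02 CPM in SsA and 50.96 ± 4.91 CPM in DMSO (SD, n = 3 each), and E2F2 averaged 17.5 ± 1.26 CPM in SsA and 33.8 ± 1.76 CPM in DMSO. E2F7, a repressor among the E2F factors, had a log2 fold change of -1.03 ± 0.09, and the activator E2F2 of -0.95 ± 0.09 (SE, edgeR adjusted p = 2.17e-04 and 2.63e-04). Of 18 tested E2F target genes of G1/S, 5 were higher (PCNA, TYMS, TK1, CDC45 and GINS2), 2 were lower (MCM4 and POLA1) and 11 were not called. With the length correction 5 were higher, namely MCM5, CDC6, TYMS, TK1 and GINS2, while PCNA (0.17 ± 0.09, SE), CDC45 (0.14 ± 0.06), MCM4 (-0.15 ± 0.07) and POLA1 (-0.01 ± 0.05) no longer passed. The thymidylate synthase gene TYMS rose by 0.44 ± 0.06 and the replication helicase gene GINS2 by 0.53 ± 0.07 (SE, edgeR adjusted p = 0.00118 and 0.00124), and both stayed called with the length correction.

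Of 10 tested genes for degradation of the inhibitors, 4 were higher (SKP1, CKS1B, RBX1 and UBAC1) and 3 lower (SKP2, DTL and RNF123), against 2 and 3 with the length correction. SKP2, the receptor subunit that targets p27, fell by 0.33 ± 0.07 on the log2 scale and its cofactor gene CKS1B had a log2 fold change of 0.56 ± 0.09. With the length correction CKS1B (0.24 ± 0.11) and UBAC1 (0.21 ± 0.09) no longer passed. RNF123, part of a ubiquitin ligase for p27, fell by 0.47 ± 0.06, and SKP1, an adaptor of SCF ligases, rose by 0.55 ± 0.08 (SE, edgeR adjusted p = 0.00106 and 0.00182). Of 12 tested repressors and activators of the INK4 locus, 3 were higher (RING1, ID1 and JUNB) and 4 lower (SUZ12, KDM6B, ETS1 and ETS2), against 1 and 2 with the length correction. KDM6B was at 0.665 to 0.943 FPKM in SsA and 1.73 to 2.52 FPKM in DMSO. It passed the level filter only through the DMSO libraries, so its call is a description only. The Polycomb gene SUZ12 averaged 84.7 ± 2.42 CPM in SsA and 121 ± 9.49 CPM in DMSO (SD, n = 3 each) and fell by 0.52 ± 0.07, while the AP-1 gene JUNB rose by 0.61 ± 0.12 (SE, edgeR adjusted p = 0.00135 and 0.00509). BMI1, another Polycomb gene of that list, had a length-corrected log2 fold change of 0.01 ± 0.06 (edgeR adjusted p = 0.887).

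Of 12 tested transcription factors and regulators that act on CDKN1A, 1 was higher and 6 were lower (MDM2, SP1, FOXO1, FOXO3, SMAD3 and SMAD4), against 3 and 4 with the length correction. The higher one was EGR1, an immediate early factor, with a log2 fold change of 4.49 ± 0.42, and FOXO3 fell by 0.75 ± 0.09 (SE, edgeR adjusted p = 2.94e-04 and 6.46e-04). EGR1 was at 13.6, 10.7 and 6.74 FPKM in SsA replicates 1, 2 and 3, against 0.601, 0.307 and 0.653 FPKM in DMSO replicates 1, 2 and 3. It passed the level filter only through the SsA libraries, so its call is a description only. MDM2, the ubiquitin ligase that ARF binds, had a log2 fold change of -0.24 ± 0.08 (edgeR adjusted p = 0.0327). With the length correction the sign of the value turned for MDM2 (0.26) and SMAD4 (0.19), and the call of MDM2 was lost without SsA replicate 1 (edgeR adjusted p = 0.0620), SsA replicate 2 (0.0962), DMSO replicate 1 (0.0906) or DMSO replicate 2 (0.0698).

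Of 3 tested neighbours and binding partners of CDKN2A, 1 was higher and 1 lower. Next to CDKN2A, MTAP, a methionine salvage gene of the same chromosome region, averaged 69.8 ± 1.94 CPM in SsA and 80.9 ± 5.45 CPM in DMSO (SD, n = 3 each), a log2 fold change of -0.21 ± 0.07 (SE, edgeR adjusted p = 0.0376). Without DMSO replicate 3 it was still called (edgeR adjusted p = 0.00864), while leaving out any other library gave edgeR adjusted p values of 0.0773 to 0.132, and the sign turned to 0.11 with the length correction. CDKN2AIPNL, related to the ARF-binding protein gene CDKN2AIP, rose by 0.67 ± 0.16 (SE, edgeR adjusted p = 0.0115), a call that the length correction ended (0.36 ± 0.14, edgeR adjusted p = 0.0786).

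**Figure D5:**
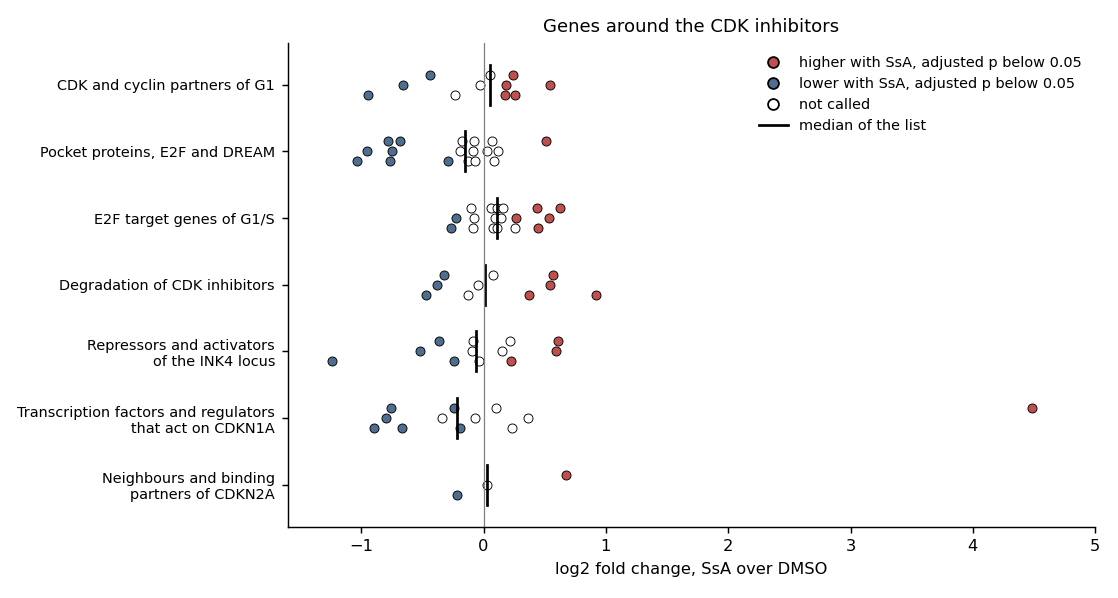
The log2 fold change, SsA over DMSO, of the tested genes in each of the 7 lists; red and blue points are genes higher and lower after SsA at an edgeR adjusted p below 0.05, open points were not called, and bars are list medians. Pocket protein, E2F and DREAM genes have 7 lower and 1 higher (44.4% called, beside 53.8% of all tested genes), and EGR1 at 4.49 stands apart in the CDKN1A list. EGR1 passed the level filter only through the SsA libraries.

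The genes whose pattern over the 6 libraries was most like that of CDKN2A, by the root mean square difference of centred log2 CPM, were PFN1 (0.0335), IFITM2 (0.0411) and ABHD14A (0.0583), and 30 genes were within 0.1. For CDKN1A they were PLPBP (0.0661), LGALSL (0.0680) and TTC23 (0.0723), with 35 genes within 0.1. PFN1 (0.79), IFITM2 (0.73) and ABHD14A (0.77) had log2 fold changes close to the 0.75 of CDKN2A, and the difference between the groups and the 2 libraries of high mitochondrial share are part of what these patterns share.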

How the data were processed

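The deposited table holds, per gene and library, counts and FPKM for 3 SsA and 3 DMSO libraries, with GRCh38 coordinates. Per the submitters' processing notes the authors used cutadapt 1.9, HISAT2 2.0.4 and StringTie 1.3.4d on GRCh38, with settings, annotation release, counting step and strand setting not given in the sources used here. Deposited counts per gene were taken as raw, and the deposited FPKM were used for levels and for the filter. With TMM scaling, edgeR 4.0.16 (R 4.3.3) was run across all genes with at least 1 FPKM in at least 3 of 6 libraries, two-sided, adjusted by Benjamini-Hochberg, with a threshold of 0.05. The steps were also run on simulated counts, where few genes were changed beyond a length trend and no library stood apart, unlike in these data. DESeq2 1.42.0, limma 3.58.1 on log2(FPKM + 1) and log2(FPKM + 0.1), other scalings and filters, a length correction (each gene's longest GENCODE 29 transcript), a fit to the 4 libraries of low mitochondrial share, a replicate block and leaving out each library were alternatives. A correction by the length implied by deposited counts and FPKM, close to merged exon length, was chosen after seeing the data. So was the length correction within the 4 libraries. Total counts ran from 57768359 to 74912492 per library, and the biological coefficient of variation was 15.3%, which includes any technical spread. Within groups, libraries differed by more than sampling noise (median chi-square per gene 3.29 to 23.9), and none was merged.

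The members and the gene lists were chosen with earlier results of these data known. Named were all 10 members, in each list the 2 called genes of smallest p whose groups did not overlap, MTAP, CDKN2B-AS1, CDK6, CCND1 and MDM2, and for CDKN1A and CDKN2A the 3 genes most like them; other called list genes and BMI1 were named after their values were seen. CCND2 was not analysed here, and 1 further gene of the rule is not reported here.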

Additional observations from a re-analysis of the deposited data

How the results depend on the processing

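Of the 10 members, CDKN2B kept its direction and its call in all 19 alternatives, and CDKN2A, CDKN3, CDK4 and RB1 kept their direction in 19 and CDKN1C in 18; CDKN1C and CDKN2D were not tested at a mean FPKM of at least 5. On the TPM scale, where the median of all genes was -0.31 (-0.12 with total counts, -0.11 and -0.13 with FPKM + 1 and FPKM + 0.1), calls were lost for CDKN2A (0.40), CDKN1C (0.38), CDKN3 (0.11) and CDK4 (0.12), and the sign turned for CDKN1A (-0.15) and CDKN2C (-0.043). With the length correction calls were lost for CDKN2A (0.46), CDKN3 (0.12), CDK4 (0.35) and RB1 (-0.20), and the sign turned for MTAP (0.11) and MDM2 (0.26). With the length implied by deposited counts and FPKM, CDKN3 was lost (0.25) and MTAP (0.14) and MDM2 (0.091) turned. At a mean FPKM of at least 5 CDKN3 (0.35) and CDK4 (0.35) were lost, as was CDK4 with total counts (0.33), FPKM + 1 (0.32) and FPKM + 0.1 (0.32). The sign of CDKN1B turned without the filter (0.0042). CDKN2C passed with DESeq2 (0.32), RLE size factors (0.32), in the 4 libraries of low mitochondrial share (0.28) and there with the length correction (0.27), where MTAP (0.049) and MDM2 (0.27) turned; CDKN2D passed in the 4 libraries (0.59). The cause of these changes was not tested.

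Leaving out 1 library at a time gave log2 fold changes of 0.12 to 0.34 for CDKN1A, -0.12 to 0.011 for CDKN1B, 0.71 to 0.85 for CDKN1C, 0.64 to 0.91 for CDKN2A, -0.60 to -0.52 for CDKN2B, 0.20 to 0.40 for CDKN2C, 0.37 to 0.86 for CDKN2D, 0.39 to 0.59 for CDKN3, 0.33 to 0.57 for CDK4 and -0.41 to -0.30 for RB1, with 2 to 5 members higher. In the same fits 2005 to 3153 of the 11427 tested genes were higher, so the member counts are a description only. The log2 ratio of the INK4 genes to CDK4, -0.14 with all libraries, ran from -0.24 to 0.0043. Deviations from the group means correlated at -0.34, 0.29 and -0.35 between same-numbered libraries, and at 0.55 between SsA replicate 1 and DMSO replicate 3. The latter are the libraries of high mitochondrial share that stood apart from their groups. These correlations therefore cannot tell whether the numbers pair the samples. With a replicate block 2074 genes were higher and 2542 lower, CDK4 was not called (0.49, edgeR adjusted p = 0.0504), and 12 of the listed genes were higher.

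All genes higher numbered 1272 with total counts, 914 with FPKM + 1, 886 with FPKM + 0.1, 49 on the TPM scale and 1579 at a mean FPKM of at least 5 (1811 lower), against 2956 higher. Members higher numbered 0 on the TPM scale with limma (0 also at an unadjusted p below 0.05), against 4 with edgeR and 5 with DESeq2 on counts, both at an adjusted p below 0.05. They numbered 1 at a mean FPKM of at least 5 and 1 with the length correction (1 lower). The share of all genes called with DESeq2 is not given here, so its member count is a description only. Listed genes higher numbered 8 with total counts, 4 with FPKM + 1, 4 with FPKM + 0.1, 1 on the TPM scale and 12 at a mean FPKM of at least 5.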
